A study of Mus musculus with 6 samples.

Results

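Acp5, Dcstamp, Ocstamp, Atp6v0d2, Ctsk, Nfatc1, Tnfrsf11a and Oscar are genes of osteoclasts and other multinucleated giant cells, which macrophages form by fusion: receptors, a transcription factor, fusion proteins and resorption enzymes. They were chosen by name, with earlier results of these data known. Every non-control probe whose transcript accession belongs to 1 of them was used. All 8 genes were found, with 11 probes of the 39429 on the array. All 11 probes were well above background on all 6 arrays, so all 8 genes were among the 29752 genes or unnamed transcripts tested.

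The RNA came from BV2 cells, a single immortalized line of mouse microglia, the macrophages of the brain. The cells had been seeded on poly-L-lysine and then received recombinant murine IL-4 at 10 ng/ml (3 samples) or PBS as the vehicle (3 samples) for 24 hr, and the series set out to profile mRNA in M2 polarization. The design text calls the controls untreated where the labels say PBS. Nothing in the labels states that separate cultures were used for the 3 samples within each treatment. The p-values therefore rest on the spread among these particular samples, and that spread may be technical. Each sample had its own single-colour Agilent array. The file headers carry 2 scan records, taken here as 2 slides: the 3 IL-4 arrays and PBS replicate 1 share slide 1, and PBS replicates 2 and 3 share slide 2.

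Osteoclasts form when monocytes and macrophages receive CSF1 and RANKL. RANKL binds its receptor RANK, the product of Tnfrsf11a, while immunoreceptors such as OSCAR supply a second, calcium-mobilizing signal. Both act through the transcription factor NFATc1, which turns on the fusion proteins DC-STAMP, OC-STAMP and the V-ATPase subunit d2, and the resorption enzymes TRAP (Acp5) and cathepsin K (Ctsk). IL-4 is known to drive fusion of macrophages into foreign-body giant cells and to restrain osteoclast formation by RANKL.

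Each array had 34655 to 38650 probes well above background and a 75th percentile of 674 to 876 in processed signal, and pairs of arrays correlated at 0.979 to 0.998 across tested genes. A level below is the log2 processed signal minus the 75th percentile of the same array, and a log2 change is IL-4 minus PBS. Genes were called at an adjusted p under 0.05 in limma. As a check of the treatment, 3 of 8 known IL-4 response genes rose and 0 fell: Arg1, the arginase induced by IL-4, and the feedback inhibitors Cish and Socs1. Their log2 changes were 2.02 ± 0.16, 1.07 ± 0.11 and 1.17 ± 0.14 (SE; adjusted p = 0.011, 0.023 and 0.025). The other 5 genes of this check list did not pass. Over all genes tested 0.807% were called as higher and 2.54% as lower. With slide as a block, Arg1 was still called (adjusted p = 0.032), and Cish and Socs1 were not (0.07 and 0.12). All 10 microglia and macrophage markers listed were well above background on all arrays. Their summed signal was 34.5 to 37.5 times the array's 75th percentile with IL-4 and 37.3 to 48.7 times with PBS. Aif1, Tyrobp and Lyz2 fell and the other 7 did not pass. With slide as a block none of these 3 was called (adjusted p = 0.23, 0.22 and 0.23), and the list's median log2 change was -0.23 within slide 1 in place of -0.44. In bulk RNA, fewer cells of a kind and less RNA per cell cannot be told apart.

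Among the 8 genes 1 rose with IL-4, Acp5, and 0 fell. Over all genes tested 3.35% were called in either direction, 0.807% as higher and 2.54% as lower. Higher calls were thus 24.1% of all calls, a share that moved with the settings. With normexp background correction it was 50.1% (75th percentile) and 38.2% (quantile normalization). It was 48.1% with probes above background on all 6 arrays and 19.3% with the mean of a gene's probes. The median log2 change of the 8 genes was 0.19, beside -0.05 over all genes tested. The groups did not overlap for 4 of the 8: Acp5, Ocstamp and Ctsk were higher on every IL-4 array, and Dcstamp was lower. Such separation was common here, since 18.7% of all genes were separated upwards and 19.8% downwards. At an unadjusted p under 0.05, 4 of the 8 genes passed, beside 34.1% of all genes.

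**Figure D1:**
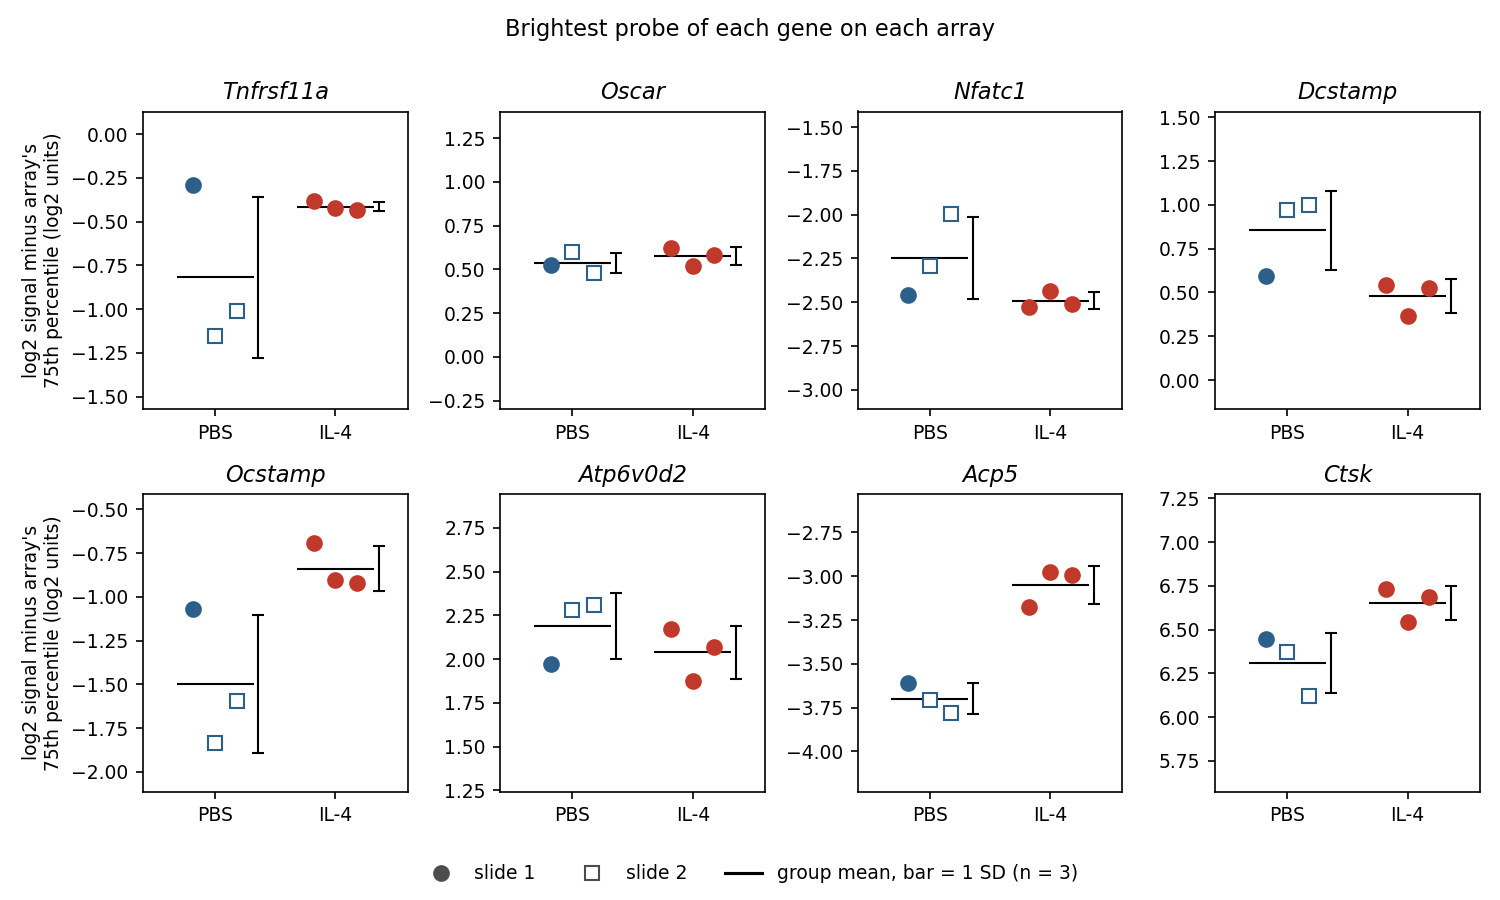
Level of the brightest probe of each gene on each array (log2 processed signal minus the array's 75th percentile), with PBS in blue, IL-4 in red, circles for slide 1 and open squares for slide 2. Lines and bars are the group mean and 1 SD over 3 arrays, and each panel spans the same range of log2 units. The 3 IL-4 arrays of Acp5 lie between -3.18 and -2.98, above all PBS arrays, whereas the PBS arrays of Tnfrsf11a are spread from -1.15 to -0.29.

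Tnfrsf11a encodes RANK, the receptor through which RANKL starts osteoclast formation. Its levels were -0.38, -0.42 and -0.44 on IL-4 replicates 1 to 3, and -0.29, -1.15 and -1.01 on PBS replicates 1 to 3. The IL-4 arrays thus sat close together, just below PBS replicate 1 and well above the other PBS arrays, and the groups overlapped. The log2 change was 0.40 ± 0.21 (SE, adjusted p = 0.21), which did not pass. Within slide 1 the sign was the opposite, at -0.12 ± 0.11 against PBS replicate 1 (adjusted p = 0.8 with slide as a block). PBS replicate 1 exceeded the mean of PBS replicates 2 and 3 by 0.79 ± 0.12, a 1.73-fold difference (adjusted p = 0.015). This was the 1 gene of the 8 whose difference between PBS arrays passed, beside 6.65% of all genes. Slide and sample cannot be told apart in that difference.

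Oscar encodes an immunoglobulin-like receptor for collagen that signals through the Fc receptor gamma chain. Its levels were 0.62, 0.52 and 0.58 with IL-4 and 0.53, 0.60 and 0.48 with PBS. The arrays of the groups were interleaved, with no array apart from the rest. The log2 change was 0.04 ± 0.10 over all arrays and 0.05 ± 0.11 within slide 1 (adjusted p = 0.78 and 0.94). Oscar had the smallest change of the 8 genes and the smallest difference between the PBS arrays, at -0.01 ± 0.12.

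Nfatc1 encodes NFATc1, the transcription factor that acts downstream of RANK and calcineurin, and it was measured by 2 probes designed on different transcripts. The brighter probe, on NM_016791, read -2.53, -2.44 and -2.51 with IL-4 and -2.46, -2.29 and -1.99 with PBS. Its groups overlapped through PBS replicate 1, and its log2 change was -0.24 ± 0.13 (adjusted p = 0.23). The dimmer probe, on NM_198429, read -3.31, -3.05 and -3.10 with IL-4 and -2.82, -2.66 and -2.49 with PBS. Here every IL-4 array was below every PBS array, with a log2 change of -0.50 ± 0.13 that did not pass over all probes (adjusted p = 0.058). Within slide 1 the values were -0.03 ± 0.14 for the brighter and -0.33 ± 0.14 for the dimmer probe, so only the dimmer one kept a difference larger than its SE. Whether the transcripts differ in response was not tested.

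Dcstamp encodes DC-STAMP, the multipass membrane protein required for fusion of osteoclasts and foreign-body giant cells. Its levels were 0.54, 0.37 and 0.53 with IL-4 and 0.59, 0.97 and 1.00 with PBS. All IL-4 arrays were below all PBS arrays, though PBS replicate 1 stood only slightly above them. The log2 change of -0.38 ± 0.14 did not pass (adjusted p = 0.1). It was -0.11 ± 0.12 within slide 1, while PBS replicate 1 itself differed from the other PBS arrays by -0.39 ± 0.13.

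Ocstamp encodes OC-STAMP, a related multipass protein that also takes part in osteoclast fusion. Its levels were -0.69, -0.91 and -0.92 with IL-4 and -1.07, -1.83 and -1.59 with PBS. The groups did not overlap, and PBS replicate 1 lay between the IL-4 arrays and the other PBS arrays. Its fold change of 1.58 was as large as that of Acp5, but with a wider spread among PBS arrays (SD 0.39, n = 3) the log2 change of 0.66 ± 0.19 did not pass (adjusted p = 0.068). The change was 0.23 ± 0.15 within slide 1 (adjusted p = 0.68 with slide as a block). The 2 fusion genes therefore stood on opposite sides of PBS, Ocstamp above and Dcstamp below, in all 3 IL-4 samples. Neither passed the test.

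Atp6v0d2 encodes the d2 subunit of the V-ATPase proton pump, an isoform enriched in osteoclasts and needed for their fusion. Its brighter probe read 2.17, 1.88 and 2.07 with IL-4 and 1.97, 2.28 and 2.31 with PBS, and the groups overlapped. The log2 change was -0.15 ± 0.13 (adjusted p = 0.44), and 0.07 ± 0.14 within slide 1, where the sign turned. The dimmer probe, designed on the same transcript (NM_175406), read 0.07, -0.10 and 0.04 with IL-4 and 0.24, 0.60 and 0.84 with PBS. Its IL-4 arrays were below all PBS arrays, and its log2 change was -0.55 ± 0.16 over all arrays and -0.23 ± 0.14 within slide 1 (adjusted p over all probes = 0.067 and 0.65). The 2 probes thus disagreed on whether the groups overlapped, and neither passed.

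**Figure D2:**
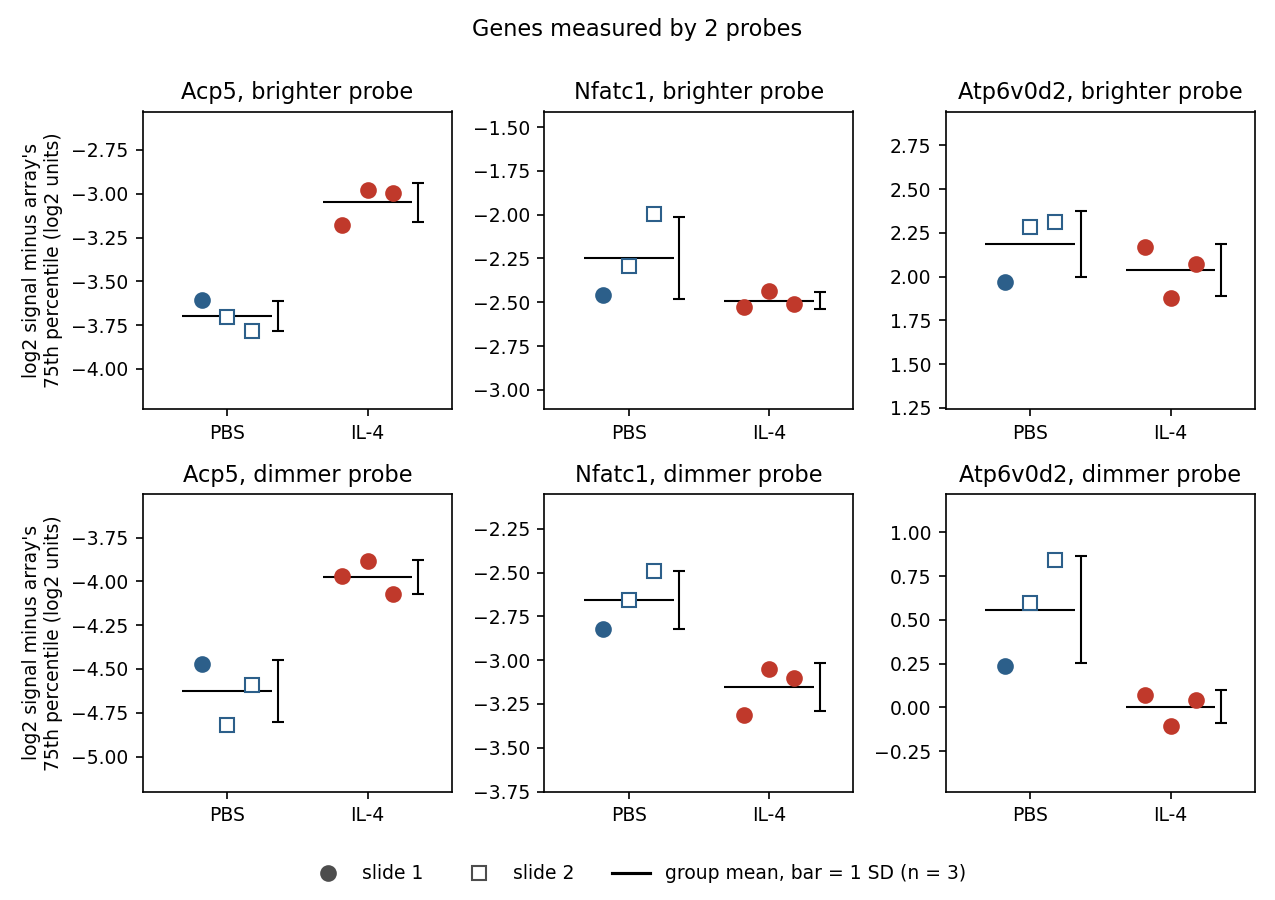
Levels on each array (log2 processed signal minus the array's 75th percentile) for the 3 genes with 2 probes, brighter probe above and dimmer probe below, with symbols as in the plot of all 8 genes. Both Acp5 probes separate the groups upwards, whereas for Nfatc1 and Atp6v0d2 the dimmer probe separates the groups downwards and the brighter one does not.

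Acp5 encodes tartrate-resistant acid phosphatase (TRAP), the enzyme by which osteoclasts are stained and which activated macrophages also make. The brighter of its 2 probes read -3.18, -2.98 and -2.99 on the IL-4 arrays and -3.61, -3.70 and -3.78 on the PBS arrays. Every IL-4 array was above every PBS array, with a gap wider than the spread within either group. Acp5 rose 1.57-fold, from -3.70 ± 0.09 to -3.05 ± 0.11 (SD, n = 3 each), a log2 change of 0.65 ± 0.11 (SE, adjusted p = 0.035).

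The dimmer Acp5 probe, on the same transcript (NM_001102405), read -3.97, -3.88 and -4.07 with IL-4 and -4.47, -4.82 and -4.59 with PBS. It also separated the groups, with a log2 change of 0.65 ± 0.12 (adjusted p over all probes = 0.04). These were the 2 of 11 probes called when each probe was tested on its own, beside 3.9% of all probes tested. As they share arrays and a transcript, they are not independent samples of the change.

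Acp5 also had the largest difference of the 8 genes within slide 1. Against PBS replicate 1 of the same slide its log2 change was 0.56 ± 0.13, a 1.47-fold difference, with every IL-4 array above it. PBS replicate 1 exceeded the other PBS arrays by only 0.13 ± 0.13 (adjusted p = 0.53). With slide as a block, Acp5 was no longer called (adjusted p = 0.21), nor was any of the other 7 genes. In that fit 0.0303% of all genes were called, and at an unadjusted p under 0.05 Acp5 alone of the 8 passed, beside 10.2% of all genes. On slide 1 alone the control arm is the single array PBS replicate 1, assumed to vary like the IL-4 arrays. That fit called 0.00336% of all genes and 0 of the 8 (limma, Acp5 adjusted p = 0.33), so it says little of a lost call. With quantile normalization Acp5 was the 1 gene of the 8 called (adjusted p = 0.02), beside 8.37% of all genes. The call was lost without IL-4 replicate 1, 2 or 3 (adjusted p = 0.12, 0.14 and 0.14) and without PBS replicate 2 or 3 (0.16 and 0.14), with log2 changes of 0.61 to 0.71. In these 5 fits limma called 0, 1, 1, 0 and 3 genes among all tested.

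Acp5 was dim. The processed signal of the brighter probe was 80.4, 109 and 92.2 with IL-4 and 71.8, 51.7 and 52.7 with PBS, with a scanner error of 10.3% to 12.2% of the signal. The raw spot medians were 133, 140 and 121.5 with IL-4 and 102.5, 103 and 93 with PBS, so the order of the groups was already present before background subtraction. For the dimmer probe the raw medians were 93, 94 and 75 with IL-4 and 71, 70 and 76 with PBS, and there the groups overlapped. With normexp background correction on the raw medians and an offset of 50, the log2 change of the brighter probe was 0.34 ± 0.10 in place of 0.65, and it was still called (adjusted p = 0.043). That setting called 4058 of all 29752 genes tested, in place of 997.

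**Figure D3:**
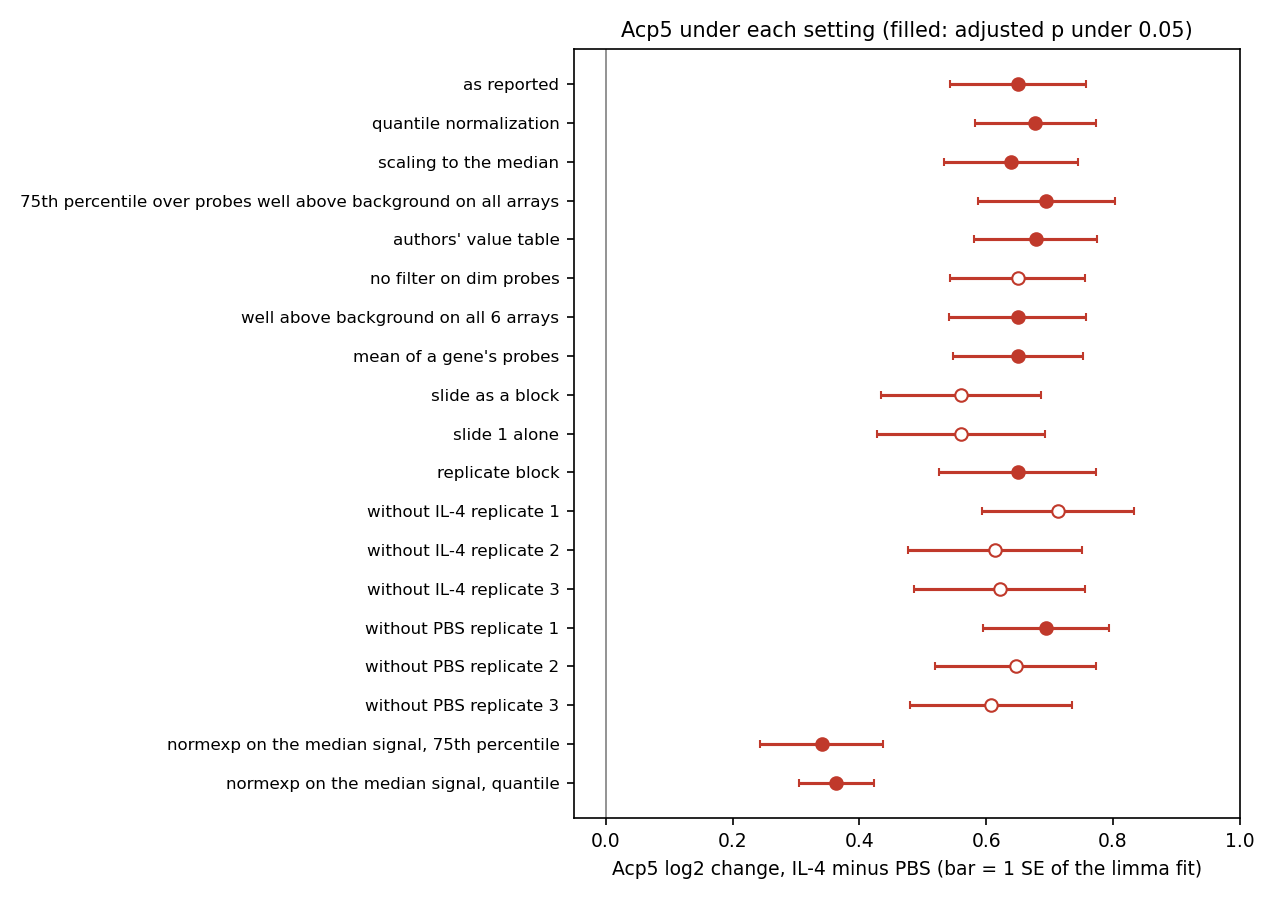
Log2 change of Acp5 between IL-4 and PBS under each setting, with bars of 1 SE of the limma fit, filled where the adjusted p was under 0.05. The value stays above 0 in all settings, from 0.34 with normexp to 0.71 without IL-4 replicate 1, and the call is lost in 8 of the 18 alternatives.

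The sequence before the outermost 2 of the 3 Acp5 transcription starts in RefSeq is shown because Acp5 is the gene that was called. Capitals mark matches, on either strand, to the NFAT core GGAAA, the AP-1 site TGANTCA, the PU.1 core GAGGAAG, the STAT6 site (TTC and GAA with 4 bases of any kind between them) or the MITF E-box CACGTG, and neighbouring matches can touch. STAT6 is the transcription factor activated by IL-4, and NFAT, AP-1, PU.1 and MITF are the usual activators of TRAP and cathepsin K genes. Each run is the 250 bases before a start, 5′ to 3′ on the minus strand of GRCm38.p6, at chr9:22130599-22130848 for the downstream start and chr9:22135747-22135996 for the upstream start.
Acp5 downstream start: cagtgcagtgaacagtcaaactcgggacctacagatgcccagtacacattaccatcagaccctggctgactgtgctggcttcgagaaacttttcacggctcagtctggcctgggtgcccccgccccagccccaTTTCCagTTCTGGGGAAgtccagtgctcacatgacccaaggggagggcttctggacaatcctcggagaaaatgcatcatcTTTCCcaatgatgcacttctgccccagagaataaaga
Acp5 upstream start: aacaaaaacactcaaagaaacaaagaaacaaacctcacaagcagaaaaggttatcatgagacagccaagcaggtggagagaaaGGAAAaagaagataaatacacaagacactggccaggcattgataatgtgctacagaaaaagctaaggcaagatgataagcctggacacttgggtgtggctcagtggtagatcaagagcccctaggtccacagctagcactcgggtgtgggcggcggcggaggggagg

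The window of the downstream start holds 1 match to the STAT6 site, which begins 110 bases before the start, and 2 matches to the NFAT core. Of 32851 mouse promoter windows of the same length, 5.85% hold at least 1 STAT6 match and 55.6% at least 1 NFAT core. These are shares per window, and a window was searched before every Acp5 start. The upstream window holds 1 NFAT core and no STAT6 match, and so does the window of the start between them (chr9:22131866-22132115). A match is a description of letters, and the arrays did not measure which start was used or any binding.

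Ctsk encodes cathepsin K, the protease by which osteoclasts degrade bone collagen. Its processed signal was 77092, 79926 and 75699 with IL-4 and 76319, 55782 and 50427 with PBS, and no spot was saturated. On the relative scale the levels were 6.73, 6.54 and 6.69 with IL-4 and 6.44, 6.37 and 6.12 with PBS, so that every IL-4 array was above every PBS array. The log2 change was 0.34 ± 0.12 and did not pass (adjusted p = 0.096). It was 0.21 ± 0.14 within slide 1 (adjusted p = 0.7 with slide as a block). The value depended on the normalization: it was 0.11 with quantile normalization and 0.09 in the authors' deposited table, against 0.33 with scaling to the median. So did the separation: in the authors' table IL-4 replicate 2 (16.109) was below PBS replicate 1 (16.115).

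The window before the Ctsk start lies at chr3:95498960-95499209 on the plus strand of GRCm38.p6. It is shown with the same marking because it holds 2 PU.1 cores. At least 1 PU.1 core is found in 10.6% of all windows.
Ctsk: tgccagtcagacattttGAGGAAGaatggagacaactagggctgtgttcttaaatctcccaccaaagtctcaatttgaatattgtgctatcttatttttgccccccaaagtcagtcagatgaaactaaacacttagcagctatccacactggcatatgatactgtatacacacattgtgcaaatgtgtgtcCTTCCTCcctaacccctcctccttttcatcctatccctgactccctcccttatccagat

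The Ctsk window holds none of the other 4 motifs. The Oscar window holds 3 NFAT cores and 1 PU.1 core, and the Tnfrsf11a window none of the 5 motifs. Promoter windows were examined for these 4 genes only.

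The order of the arrays was also compared between the slides, though 3 of the 4 arrays of slide 1 are IL-4 arrays. For 7 of the 8, all 4 arrays of slide 1 were on 1 side of both arrays of slide 2: above for Acp5, Ocstamp, Ctsk and Tnfrsf11a, and below for Dcstamp, Atp6v0d2 and Nfatc1. This held for 60.3% of all genes, and the arrays of slide 1 were above for 24.6%. Within slide 1, every IL-4 array exceeded PBS replicate 1 for Acp5, Ocstamp and Ctsk, a pattern of 30.5% of all genes. Every IL-4 array was below it for Dcstamp and Tnfrsf11a, a pattern of 25.5%. With PBS replicate 1 left out, so that treatment and slide coincide, 6 of the 8 genes were called, beside 42.6% of all genes. For Dcstamp, Nfatc1, Ocstamp and Tnfrsf11a the log2 change was then -0.51, -0.35, 0.88 and 0.67. The part of the slide in these changes cannot be told apart from that of the samples it carried.

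**Figure D4:**
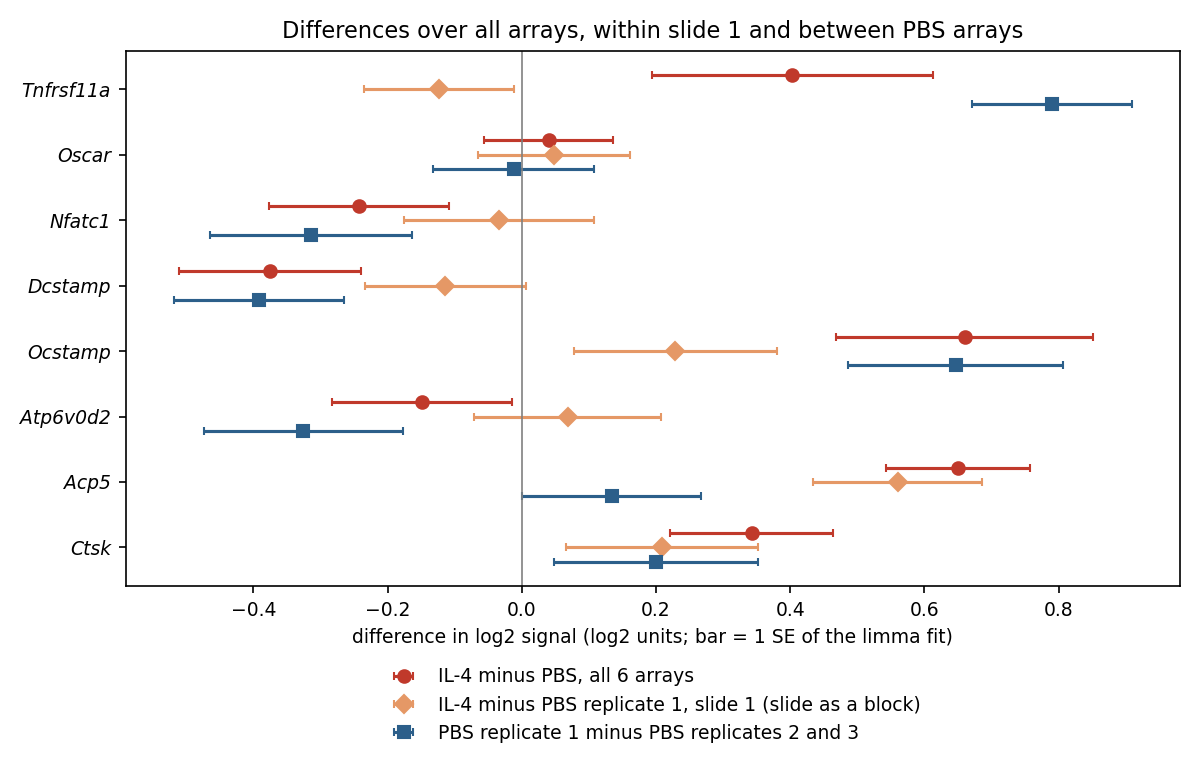
For each gene, the log2 change over all 6 arrays (circles), the change against PBS replicate 1 of the same slide (diamonds) and the difference of PBS replicate 1 from PBS replicates 2 and 3 (squares), with bars of 1 SE of the limma fits. For Acp5 the first 2 values are 0.65 and 0.56 and the third 0.13, whereas for Tnfrsf11a they are 0.40, -0.12 and 0.79.

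The other genes of the pathway were followed in 10 lists with 126 genes, of which 121 were tested. With IL-4, 1 rose, 8 fell and 112 did not pass, so that 7.44% were called, beside 3.35% of all genes. As the lists were chosen with earlier results of these data known, these shares are not a test of the pathway. The median log2 change was -0.08, beside -0.05 for all genes tested. With slide as a block, limma called 0 of the 121 and 18 passed at an unadjusted p under 0.05, beside 10.2% of all genes. The ligand gene Tnfsf11 (RANKL), together with Lgr4, Rcan2 and Mmp9, was not well above background on every array of either group and was not tested, and Acp3 had no matched probe.

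Among 7 tested genes of RANK and CSF1 signalling, 0 passed in limma and 1 had an unadjusted p under 0.05, beside 34.1% of all genes. The 7 were the ligands Csf1 and Il34, the receptor Csf1r, the decoy Tnfrsf11b and the signalling genes Traf6, Traf3 and Map3k7. Among 9 genes of calcineurin and the other NFAT factors, 2 fell, both catalytic subunits of calcineurin, the phosphatase that activates NFATc1. Ppp3cb had a log2 change of -0.61 ± 0.10 and Ppp3cc of -0.71 ± 0.14 (adjusted p = 0.035 and 0.044), with -0.50 and -0.43 within slide 1. Ppp3ca and Rcan1, picked after their values were seen, did not pass. The catalytic subunit Ppp3ca was at -0.33 ± 0.13 (adjusted p = 0.12). Rcan1 had the opposite sign, 0.57 ± 0.15 (adjusted p = 0.06), and 0.80 within slide 1. The list's median log2 change was -0.17. Of 11 ITAM adaptors and partner receptors 1 fell, the adaptor gene Tyrobp, at -0.95 ± 0.18 (adjusted p = 0.04) and -0.54 within slide 1.

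Of 10 repressors of osteoclast formation 2 fell and 0 rose. Irf8, a transcription factor that restrains NFATc1, had a log2 change of -0.67 ± 0.12 and Ptpn6, the phosphatase SHP-1, of -0.73 ± 0.14 (adjusted p = 0.039 and 0.041). Among 15 transcription factors that promote osteoclast formation none was called by limma. At an unadjusted p under 0.05, 7 passed, beside 34.1% of all genes. Prdm1, picked after its values were seen, had the widest difference there, 1.20 ± 0.33 (adjusted p = 0.063), with a PBS spread of 0.76 (SD, n = 3) and a difference of 0.33 within slide 1.

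None of 12 resorption effectors, 16 other V-ATPase subunits and 15 cathepsins and inhibitors was called by limma. At an unadjusted p under 0.05, 1, 1 and 5 passed, beside 34.1% of all genes. Atp6v0d1, the ubiquitous counterpart of Atp6v0d2, picked after its values were seen, had a log2 change of -0.05 (adjusted p = 0.79). Among 5 other acid phosphatases Acp6, a mitochondrial lysophosphatidic acid phosphatase, fell with a log2 change of -0.97 ± 0.12 (adjusted p = 0.025), opposite in sign to Acp5.

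Of 21 surface and adhesion genes of macrophage fusion, 1 rose and 2 fell. Ccl2, a chemokine that promotes giant cell formation, rose with a log2 change of 0.93 ± 0.14 (adjusted p = 0.028), and of 1.11 against PBS replicate 1. Cd81, a tetraspanin known to restrain macrophage fusion, had a log2 change of -0.77 ± 0.12 and P2rx7, an ATP-gated channel studied in fusion, of -0.64 ± 0.11 (adjusted p = 0.029 and 0.037). Their values within slide 1 were -0.64 and -0.50. None of these 9 called genes was called with slide as a block.

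**Figure D5:**
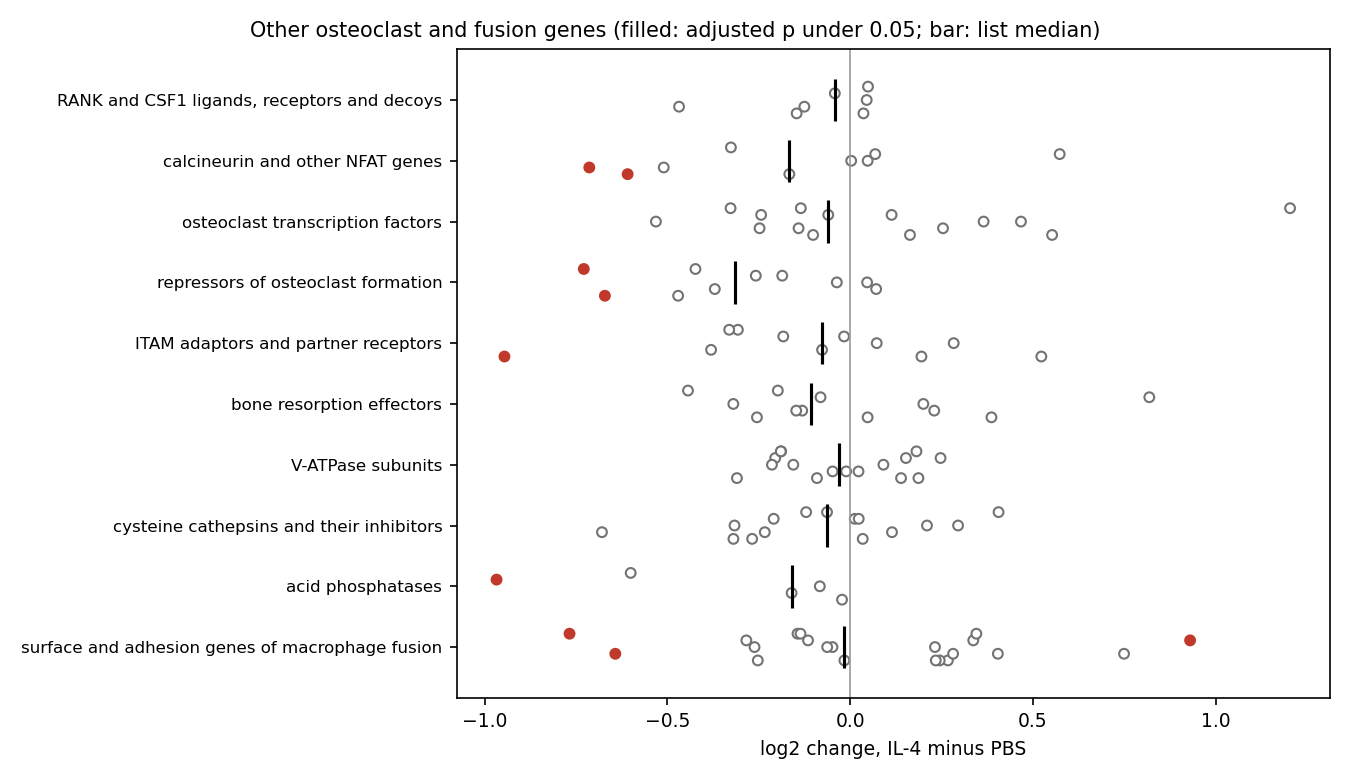
Log2 change between IL-4 and PBS of each tested gene in the 10 lists of other osteoclast and fusion genes, with 1 point per gene, red where the adjusted p was under 0.05, and a black bar at the median of each list. Of 121 genes 1 rose and 8 fell, and the list medians lie between -0.31 and -0.02.

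Markers of other cells were followed in the same way. Of the tested markers, 0 of 5 for osteoblasts, 0 of 5 for fibroblasts, 0 of 6 for astrocytes and neurons and 0 of 5 for lymphocytes were called by limma. At an unadjusted p under 0.05, 2, 1, 2 and 2 passed, beside 34.1% of all genes. Of 5 markers of dendritic cells and granulocytes 1 fell, S100a8 (log2 change -0.97 ± 0.19, adjusted p = 0.042, and 0.35 with slide as a block). The median of these 5 was 0.19, and the 4 with an unadjusted p under 0.05 lay on both sides of 0. The summed signal of the lymphocyte markers was 7.48 to 7.90 times the 75th percentile with IL-4 and 2.88 to 6.39 times with PBS. Their median log2 change was 0.31, and 0.14 within slide 1. Their median difference of PBS replicate 1 from PBS replicates 2 and 3 was 0.38. The sums were 3.80 to 3.95 and 4.05 to 5.58 for osteoblasts, and 0.31 to 0.40 and 0.36 to 0.41 for fibroblasts. For astrocytes and neurons they were 2.17 to 2.59 and 1.68 to 1.97. For dendritic cells and granulocytes they were 1.70 to 1.80 and 1.79 to 2.20. The defining markers Ms4a1, Lum, Dmp1 and Sost were not well above background on every array of either group, and Ly6g and Bglap had no matched probe. The RNA came from a single cell line, so these signals are not counts of other cells. Their relation to the change of Acp5 was not tested.

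The pattern of Acp5 over the 6 arrays was compared with those of 19142 other named genes by Pearson correlation. The most alike were Olfr228 (r = 0.998), Taf15 (0.996), 4930544D05Rik (0.994), 2810006K23Rik (0.994) and Xpo5 (0.994), and the most opposite were Gnai2 (-0.998), Tspan5 (-0.995) and Trap1a (-0.994). The correlation takes no account of size. The log2 changes of the most alike ran from 0.13 (4930544D05Rik) to 0.57 (2810006K23Rik), and of the most opposite from -0.17 (Gnai2) to -0.43 (Trap1a). Of all these genes only Taf15 and 2810006K23Rik were called (limma, adjusted p = 0.037 and 0.046). The points share arrays and slides, and high values are common with 6 points and this many genes.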

How the data were processed

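The authors' scanner files hold spot intensity on a linear scale from Agilent Feature Extraction 11.0.1.1, background subtracted and detrended within each array, per the file headers. The authors also deposited a value table on a log2 scale (39485 rows, the same median of 6.92 in all columns), made by steps that are not given in the sources used here. It correlated at 0.999 or above with the log2 processed signal of each array and served as an alternative. Controls and spots with an outlier flag (87 to 394 per array) were left out, copies of a probe were averaged, and log2 signals were set relative to the array's 75th percentile. RefSeq accessions (GRCm38.p6 table) named 69.1% of 39429 probes. The headers give an earlier build (mm9), so gene coordinates are not printed and promoter windows carry the table's own build.

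The 35979 probes that 1 group or both showed well above background on all of its arrays entered the fit by limma 3.58.1 (lmFit, eBayes; R 4.3.3). It had no block, a gene was represented by its brightest tested probe, and p-values had Benjamini-Hochberg adjustment over 29752 genes. All adjusted p-values are from limma. The value within slide 1 is the IL-4 term of the fit with slide as a block. The fit was also run on simulated data with the spread of these arrays, no slide effect and log2 changes of 1 or 2. That run does not bear on slide or on smaller changes. The named genes were the 8 genes, up to 4 called genes of each list, and the 5 most and 3 least alike Acp5. Of the check list of IL-4 response genes, only the called ones are named. Prdm1, Atp6v0d1, Ppp3ca, Rcan1 and the genes that make up the RANK and CSF1 list are named outside this rule. The genes and lists were chosen with earlier results of these data known. The number of arrays limits the precision.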

Additional observations from a re-analysis of the deposited data

How the results depend on the processing

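The number of genes called depended strongly on the settings. Instead of 240 higher and 757 lower, limma called 774 and 1699 with quantile normalization, 531 and 1202 with scaling to the median, 107 and 416 with the percentile over probes above background on all arrays, and 674 and 1625 with the authors' table. It called 5 and 10 with no filter on dim probes, 1830 and 1978 with probes above background on all 6 arrays, and 117 and 488 with the mean of a gene's probes. With normexp, added after the data were seen because the mean signal named in the plan was not used here, it called 2032 and 2026 (75th percentile) and 1409 and 2283 (quantile). With slide as a block it called 6 and 3, and on slide 1 alone 1 and 0. Leaving out 1 array gave 0 to 5812 higher and 0 to 6842 lower, the highest counts without PBS replicate 1 (the others gave at most 3 and 0), where treatment and slide coincide.

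Acp5 lost its call with no filter (0.65, adjusted p = 0.065), with slide as a block and on slide 1 alone (0.56 for each, adjusted p = 0.21 and 0.33), and without any 1 array except PBS replicate 1 (range 0.61 to 0.71). Ocstamp was called with normexp and the 75th percentile (0.56, adjusted p = 0.034) and with probes above background on all 6 arrays (0.66, adjusted p = 0.048). Atp6v0d2 and Tnfrsf11a changed sign with slide as a block and on slide 1 alone (0.068 and -0.12 in each). Leaving out 1 array gave 0.49 to 0.88 for Ocstamp, 0.25 to 0.41 for Ctsk, -0.51 to -0.30 for Dcstamp, -0.35 to -0.12 for Nfatc1 and 0.24 to 0.67 for Tnfrsf11a, and among these fits each was called only without PBS replicate 1. For Atp6v0d2 it gave -0.26 to -0.07, never called, and the mean of its probes gave -0.35. The cause of these shifts was not tested, and the fits that leave out 1 array also have fewer samples. Oscar kept its sign and was not called in any of the 18 alternatives.

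Deviations from the group means correlated at 0.08, -0.02 and 0.30 between IL-4 and PBS samples of the same number, for numbers 1, 2 and 3. Between IL-4 and PBS samples of different numbers the values ran from -0.19 to 0.06. Whether the replicate numbers pair the samples was not tested. With the replicate block limma called 1804 higher and 1966 lower, among them all 997 called without it, and also Ocstamp (0.66, adjusted p = 0.037).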
